A study of Mus musculus with 6 samples.

Results

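The genes Pi16, Pdgfrb and Ngfr were examined in cultures put through adipocyte differentiation with or without the compound NJT-2. They were taken by symbol from the deposited gene table and are 3 of the 4864 genes analysed here. The cells were adipose-derived stem cells (ADSCs), progenitors that can become fat cells in culture, from the subcutaneous white fat of wild-type male C57BL/6J mice. They were put through adipocyte differentiation with vehicle (3 libraries) or with NJT-2 (saikosaponin A, a plant terpenoid, 3 libraries), and RNA was sequenced on day 8. The concentration of NJT-2 in this cell model was 200 nM, although it is not stated separately for the sequenced cultures. No source used here says whether the 3 libraries of a group came from separate cultures or animals, so p-values measure only the spread between these libraries.

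All 3 genes are used to mark stromal cells of fat. Pi16 encodes peptidase inhibitor 16, a cell surface protein of the CAP family, and marks an early, multipotent fibroblast-like progenitor that lies upstream of committed preadipocytes. Pdgfrb encodes the beta receptor for platelet-derived growth factor, a receptor tyrosine kinase of mural cells and of perivascular cells that can give rise to adipocytes. Ngfr encodes the low-affinity neurotrophin receptor p75, which binds nerve growth factor and its relatives and is found on Schwann cells, neurons and some mesenchymal progenitors. Bulk RNA cannot tell fewer cells of a type from less RNA per cell.

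Pi16 (ENSMUSG00000024011) is at chr17:29317680-29330593 on the plus strand of GRCm38, and its longest transcript has 7 exons. On the opposite strand an antisense gene, AC162182.1, overlaps it by 2569 bp, of which 222 bp are exonic. The antisense gene is not analysed here. The libraries were made with a protocol that keeps strand, but whether the counting used strand is not given in the sources used here. Ngfr (ENSMUSG00000000120) is at chr11:95568818-95587735 on the minus strand, with 1 transcript of 6 exons. No other annotated gene overlaps Ngfr.

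No start-site sequence was available here for Pdgfrb. The fitted differences of Pi16 and Ngfr have opposite signs, although that of Ngfr did not pass the thresholds given below with all libraries kept. The start-site regions of these genes are shown. Each runs from 250 bases before to 50 bases after the RefSeq start site, on GRCm38.p6, and is written 5′ to 3′ on the strand of the gene. Capitals mark GC boxes (GGGCGG, or CCGCCC where the box is on the other strand) and CCAAT boxes (CCAAT, searched on both strands). The region of Pi16 is chr17:29318632-29318931 on the plus strand and that of Ngfr is chr11:95587649-95587948 on the minus strand.
Pi16: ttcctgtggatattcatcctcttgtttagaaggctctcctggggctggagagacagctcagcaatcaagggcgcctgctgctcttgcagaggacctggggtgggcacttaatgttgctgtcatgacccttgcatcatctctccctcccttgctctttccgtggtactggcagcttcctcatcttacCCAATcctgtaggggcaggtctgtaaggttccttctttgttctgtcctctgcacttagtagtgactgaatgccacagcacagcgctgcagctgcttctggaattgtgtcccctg
Ngfr: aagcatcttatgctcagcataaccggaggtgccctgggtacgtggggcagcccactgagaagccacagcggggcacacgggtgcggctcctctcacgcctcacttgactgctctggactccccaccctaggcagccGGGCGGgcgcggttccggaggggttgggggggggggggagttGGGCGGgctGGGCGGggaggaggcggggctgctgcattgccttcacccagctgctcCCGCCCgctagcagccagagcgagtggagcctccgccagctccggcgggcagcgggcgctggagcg
The Pi16 region lies inside the deposited gene span, since that span begins upstream of the RefSeq start. It holds 1 CCAAT box and no GC box. The Ngfr region holds 4 GC boxes, of which 1 is on the other strand, and no CCAAT box. Its GC content was 71.7% against 53.3% for Pi16, and it has 23 CpG dinucleotides against 3. Among the 32851 RefSeq regions of this length, 35.7% hold a GC box and 37.4% a CCAAT box. E-boxes (CANNTG, a palindrome) occurred once in Pi16, numbered 2 in Ngfr and are present in 72.3% of all regions. A TATA box (TATAAA, both strands) and the nuclear receptor half-site AGGTCA (both strands) were in neither region and are in 13.6% and 16.3% of all regions. These matches describe letters only.

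In vehicle cultures Pdgfrb was the most abundant of the genes and Ngfr the least. Levels between genes are compared as FPKM, which scales a count by gene length and library size. The mean FPKM in vehicle was 71.8 ± 15.9 (SD, n = 3) for Pdgfrb, 18.1 ± 5.05 for Pi16 and 0.467 ± 0.202 for Ngfr, and their ranges did not overlap. With NJT-2 the means were 32.0 ± 11.2, 1.55 ± 0.509 and 1.26 ± 0.836. Pdgfrb stayed above the other genes in every library, whereas the NJT-2 ranges of Pi16 (0.98 to 1.95) and Ngfr (0.30 to 1.85) overlapped. The order Pdgfrb, Pi16, Ngfr was seen in 5 libraries, and only NJT-2 replicate 1 had Ngfr above Pi16. The Pi16 values are per 6365 bp, the merged length of its exons, and would be higher per the 3994 bp of its longest transcript.

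**Figure D1:**
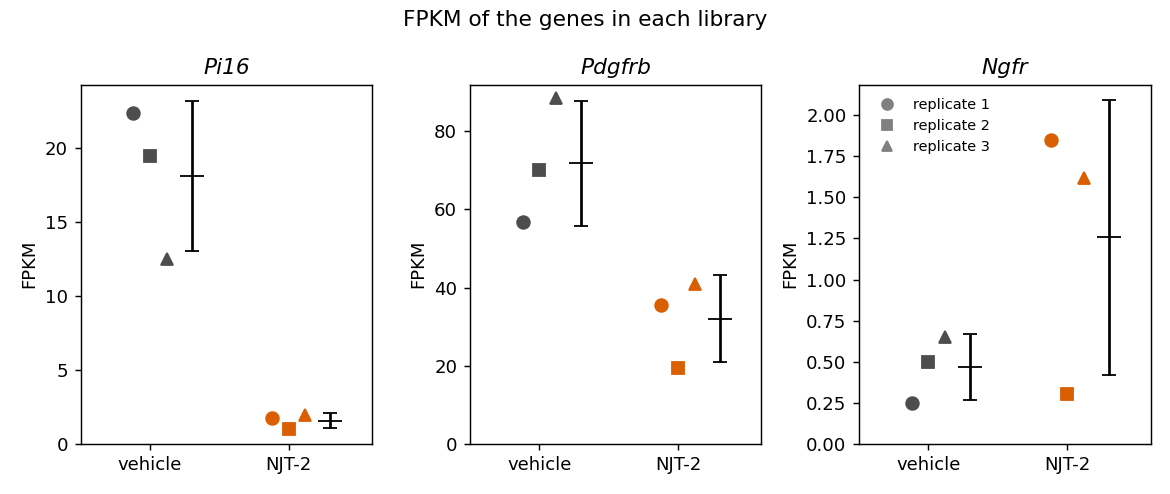
FPKM of each gene in every library (points), with the group mean and SD, on linear axes that differ between panels. The NJT-2 points of Pi16 (0.98 to 1.95) and Pdgfrb (19.47 to 40.98) sit below all vehicle points, while NJT-2 replicate 2 of Ngfr (0.30) sits among them.

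Before the comparison, the libraries themselves differed in ways the groups do not account for. Between 16093037 and 28929673 reads fell on the analysed genes, which are 27.7% to 32.5% of the library totals implied by the FPKM values. Vehicle replicate 1 and NJT-2 replicate 2 stood farthest from the other libraries of their groups. Vehicle replicate 1 lay at distances of 76.3 and 103.5 (log2 CPM over tested genes) from the other vehicle libraries, which were 39.3 apart, and NJT-2 replicate 2 at 76.5 and 73.3 from libraries 19.1 apart. Between the groups, distances ran from 56.7 (vehicle replicate 3 to NJT-2 replicate 3) to 128.0 (vehicle replicate 1 to NJT-2 replicate 2). Several distances within a group were thus larger than some between groups. NJT-2 replicate 2 also carried the mesothelial marker Krt19 at an FPKM of 87.95, against 0.58 to 3.45 elsewhere. The log2 CPM of a library minus the mean over all libraries correlated with gene length, across genes, with a Spearman coefficient of −0.388 and −0.401 in vehicle replicates 1 and 2 and of 0.184 to 0.347 in the other libraries. With a length offset the log2 fold change of Pi16 was −4.20 and that of Pdgfrb −1.54, neither closer to 0, and that of Ngfr stayed at 1.29. The spread of all genes was wide, with a biological coefficient of variation of 0.504. Results are therefore given with and without vehicle replicate 1 and NJT-2 replicate 2. The set without them keeps vehicle replicate 2, so it does not remove the length trend.

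Pi16 was the gene with the clear difference. Its counts were 8257, 11005 and 5682 in vehicle and 781, 439 and 867 with NJT-2. The FPKM values were 22.33, 19.40 and 12.50 in vehicle and 1.73, 0.98 and 1.95 with NJT-2. All NJT-2 libraries were far below all vehicle libraries, and the gene went from the 75.5 to 87.3 percentile of the analysed genes to the 29.0 to 36.5 percentile. Pi16 was 14.2-fold lower (95% interval 6.29 to 32.0), a log2 fold change of −3.83 (SE 0.50). Its adjusted p was 0.0270 by edgeR's quasi-likelihood test with Benjamini-Hochberg adjustment. Pi16 had the 9th lowest log2 fold change of the 3705 genes tested. It was the only one of the 3 genes called (adjusted p under 0.05 and absolute log2 fold change over 1), beside 0.135% of tested genes called lower and 0.567% called higher.

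The call for Pi16 depended on which libraries were kept, while its direction held throughout. Leaving out vehicle replicate 1 or 2 gave it an adjusted p by edgeR of 0.0617 or 0.243. Leaving out NJT-2 replicate 1 or 3 gave 0.11 or 0.10. The log2 fold change in those fits stayed between −3.99 and −3.39. In the order given, they called 1, 0, 1 and 1 of all 3705 tested genes. The call was kept without vehicle replicate 3 (−4.14, adjusted p 0.0390 by edgeR) and without NJT-2 replicate 2 (−3.61, adjusted p 0.0458 by edgeR). These 2 fits called 4 and 75 of all tested genes. Without both libraries that stood apart the log2 fold change of Pi16 was −3.12. Its adjusted p there was 0.00284 by edgeR, beside 6.13% of tested genes called lower. With DESeq2 on all libraries it was −3.81 (adjusted p 6.54e-12), beside 3.40% called lower and 4.40% called higher. Voom with quality weights gave −3.37 (adjusted p 2.38e-07 by limma), beside 9.04% called lower.

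For Pdgfrb the separation of the groups was complete but the difference was not called. The gene (ENSMUSG00000024620) is at chr18:61045150-61085061 on the plus strand of GRCm38, with 24 exons in its longest transcript and no annotated gene overlapping it. Its counts were 18060, 34251 and 34592 in vehicle and 13820, 7474 and 15688 with NJT-2. The FPKM values were 56.74, 70.15 and 88.46 in vehicle and 35.56, 19.47 and 40.98 with NJT-2. Every NJT-2 library was below every vehicle library, yet the gene remained highly expressed, at the 84.5 to 91.9 percentile of the analysed genes. The log2 fold change was −1.35 (SE 0.36), with a 95% interval of −2.18 to −0.51, an unadjusted p of 0.00608 and an adjusted p of 0.151 by edgeR. In the log2 CPM values Pi16 and Pdgfrb were the genes with all NJT-2 libraries below all vehicle libraries, as were 14.0% of tested genes.

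The Pdgfrb call depended on the tool and on the libraries kept. DESeq2 gave −1.33 with an adjusted p of 0.00801, which is a call, beside 3.40% of tested genes called lower. EdgeR without both libraries that stood apart, a choice made after seeing the data, also gave a call. There the log2 fold change was −1.05 (adjusted p 0.0231 by edgeR), beside 6.13% of tested genes called lower. In that fit the level with vehicle was 2.08 times that with NJT-2 (95% interval 1.47 to 2.94). DESeq2 without them gave −1.04 (adjusted p 5.30e-05), beside 7.18% of tested genes called lower. Voom gave −0.93 (adjusted p 0.00049 by limma), short of the fold limit.

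Ngfr did not follow the other genes. Its counts were 50, 153 and 161 in vehicle and 452, 73 and 391 with NJT-2. The FPKM values were 0.25, 0.50 and 0.65 in vehicle and 1.85, 0.30 and 1.62 with NJT-2. NJT-2 replicates 1 and 3 were above every vehicle library and NJT-2 replicate 2 was not, so that the NJT-2 libraries ranged 6.17-fold. Of all tested genes 15.1% had every NJT-2 library above every vehicle library. The log2 fold change was 1.29 (SE 0.73), with a 95% interval of −0.40 to 2.99 and an adjusted p of 0.349 by edgeR. No difference was thus called for Ngfr, and the interval holds both no change and a several-fold higher level. Without NJT-2 replicate 2 the value was 1.75 (adjusted p 0.112 by edgeR). Without vehicle replicate 1 as well it was 1.59 (adjusted p 0.0350 by edgeR), a call, beside 6.88% of tested genes called higher. DESeq2 without both gave 1.61 (adjusted p 0.00194), beside 8.29% called higher. Voom, which gives outlying libraries less weight, called it at 1.70 (adjusted p 0.00131 by limma), beside 10.6% called higher.

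**Figure D2:**
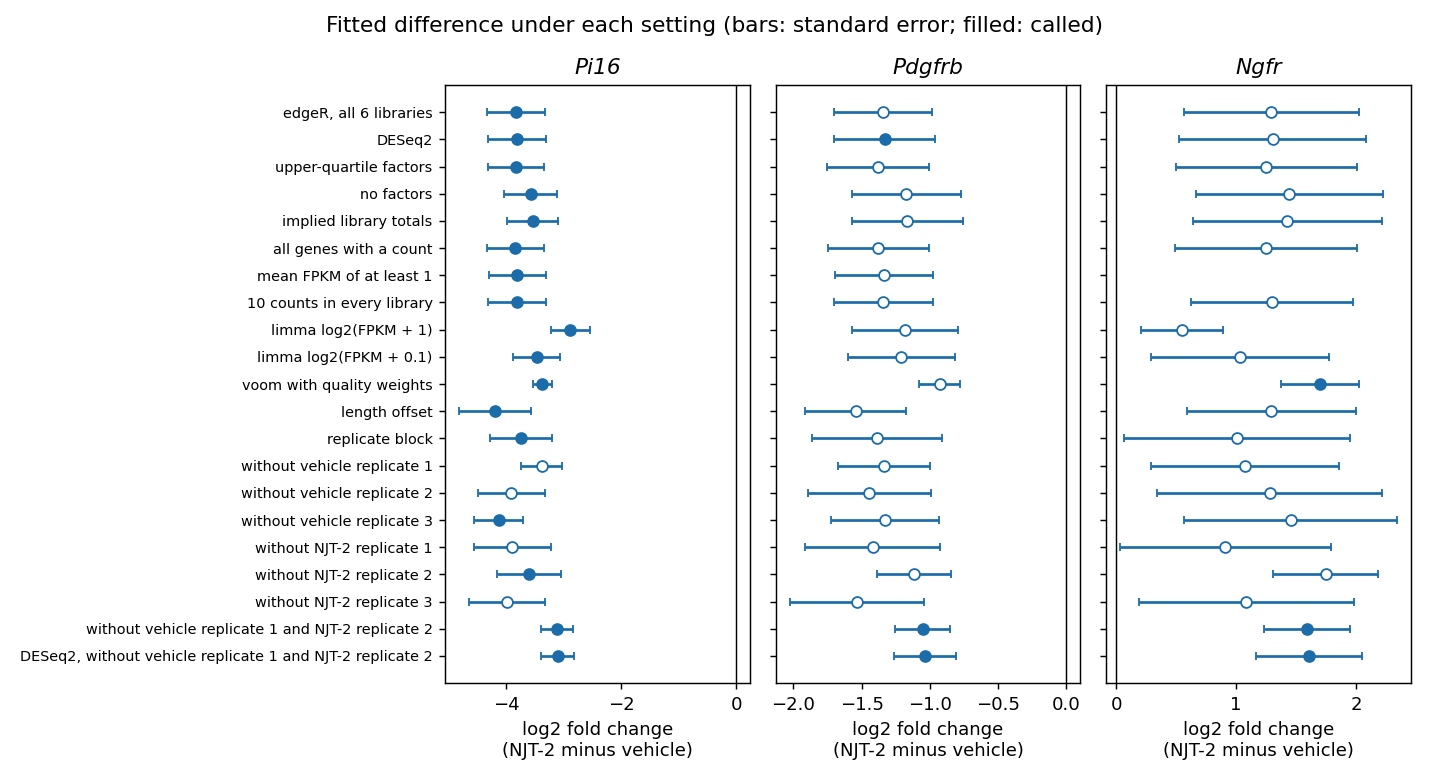
Log2 fold change of each gene (NJT-2 minus vehicle, x axis) under each processing choice and with libraries left out, with bars for the standard error and filled points where the gene was called. Pi16 stays between −4.20 and −2.88 and Pdgfrb between −1.54 and −0.93, all below 0, and Ngfr stays between 0.55 and 1.75, all above 0.

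An exact permutation test of 3 against 3 libraries cannot give a two-sided p under 0.1, so it could not pass the threshold in this design. On log2 CPM, Pi16 differed by −3.73 and Pdgfrb by −1.39, each at that smallest exact p of 0.1 (0.15 adjusted over the 3 genes). Ngfr differed by 0.97, with an exact permutation p of 0.4.

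The ratio of 2 genes within a library does not depend on how libraries are scaled against each other. The ratio of Pi16 to Pdgfrb, in FPKM, was 0.394, 0.277 and 0.141 in vehicle and 0.0487, 0.0503 and 0.0476 with NJT-2. The vehicle libraries were spread and the NJT-2 libraries were nearly alike, NJT-2 replicate 2 included. On the log2 scale the difference was −2.35, with an SD of 0.751 in vehicle and 0.0408 with NJT-2 (exact permutation p 0.1). Pi16 was therefore lower relative to Pdgfrb in every NJT-2 library than in any vehicle library.

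The ratio of Ngfr to Pdgfrb was 0.00441, 0.00713 and 0.00735 in vehicle and 0.0520, 0.0154 and 0.0395 with NJT-2. Here the groups did not overlap, although those of Ngfr itself did, and the log2 difference was 2.37 (exact permutation p 0.1). This ratio also holds the lower Pdgfrb with NJT-2. In NJT-2 replicate 2 Ngfr was at an FPKM of 0.30, within the vehicle range of 0.25 to 0.65, and Pdgfrb was at 19.47. The share of other gene pairs whose ratios separate the groups was not computed. The ratio of Pi16 to Ngfr was 89.3, 38.8 and 19.2 in vehicle and 0.935, 3.27 and 1.20 with NJT-2, a log2 difference of −4.72 (exact permutation p 0.1). After leaving out any 1 library these differences were −2.76 to −2.02, 2.01 to 2.89 and −5.26 to −4.15, in the order given.

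**Figure D3:**
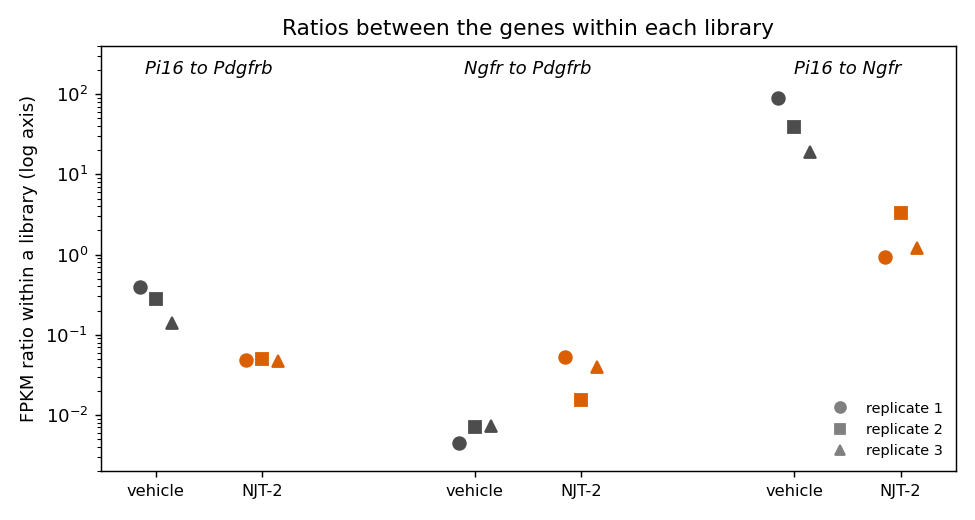
Ratio of FPKM between pairs of the genes in each library, on a log axis. The NJT-2 points of the ratio of Pi16 to Pdgfrb lie together at 0.0476 to 0.0503 and the vehicle points spread from 0.141 to 0.394.

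The genes with the most similar pattern across the 6 libraries were named by Pearson's r of log2 CPM, as a description. The 6 libraries hold both groups, so that r includes the difference between them. Nearest to Pi16 were Itgb5 (an integrin subunit, r = 0.996), Timp2 (an inhibitor of metalloproteinases, r = 0.996), Tmem176a (r = 0.995), Ccl6 (a chemokine, r = 0.993) and Rflnb (r = 0.993). Of these only Ccl6 was called, with a log2 fold change of −4.11 (adjusted p 0.0359 by edgeR). Pdgfrb itself had an r of 0.940 with Pi16. Nearest to Pdgfrb were Ror2 (a receptor tyrosine kinase for Wnt ligands, r = 0.991), Iglon5, Mov10, Ogdhl and Arhgap19, all at 0.986 or more and none called by edgeR.

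Nearest to Ngfr were Letm1 (r = 0.994), Fbn2 (fibrillin 2, a microfibril protein, r = 0.992), Cdadc1, Mgrn1 and Isoc1, all at 0.990 or more, and none was called by edgeR. The FPKM of Fbn2 was 0.07, 0.19 and 0.47 in vehicle and 2.40, 0.09 and 2.43 with NJT-2, with the same low NJT-2 replicate 2. Ngfr had an r of −0.436 with Pi16 and −0.173 with Pdgfrb. An r of at least 0.9 was reached by 190 of the 3704 other genes for Pi16, 111 for Pdgfrb and 104 for Ngfr.

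The other progenitor genes were counted from a list. In this and the following lists, genes outside the 4864 analysed, which are the first by Ensembl number, have no value here, whatever their expression. Of 38 listed, 11 were analysed and 9 tested, and edgeR called 0 of them, with 1 (Dcn) lower under an unadjusted p of 0.05, beside 9.72% of all tested genes, and 1 called lower by DESeq2, beside 3.40%. Counts this small cannot be placed near or far from those shares. The median log2 fold change was −0.21, beside 0.02 for all tested genes. Dcn (decorin, a matrix proteoglycan) had a log2 fold change of −1.84 (SE 0.58, adjusted p 0.19 by edgeR), with counts of 10116, 93604 and 85744 in vehicle and 17264, 18954 and 11442 with NJT-2. In log2 CPM, vehicle replicate 1 of Dcn lay within the range of the NJT-2 libraries. Without it and NJT-2 replicate 2, edgeR called 1 of the 9 genes higher and 2 lower, beside 6.88% and 6.13% of all tested genes. Igfbp6, which binds insulin-like growth factors, had −1.12 (adjusted p 0.302 by edgeR). Ebf2, a transcription factor of committed and brown preadipocytes, had 1.62 (adjusted p 0.292 by edgeR), and Col1a1, the main fibrillar collagen, had −0.21. The summed FPKM of the 11 genes was 316 to 987 in vehicle and 487 to 540 with NJT-2.

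Genes that act around Pdgfrb were counted in the same way. Of 38 listed ligands, receptors and signalling partners, 17 were analysed and 16 tested, and edgeR called 0, with 1 higher under an unadjusted p of 0.05, beside 8.04% of all tested genes, and 0 called by DESeq2. The median log2 fold change was 0.29, and 14 of 16 were above 0, beside 1883 of all 3705 tested genes. Without the 2 libraries that stood apart edgeR called 1, lower, beside 6.13% of all tested genes called lower. Cblb, a ubiquitin ligase that acts on activated receptors, was the gene under an unadjusted p of 0.05, at 1.30 (adjusted p 0.236 by edgeR). The ligand gene Pdgfb had 54, 92 and 113 counts in vehicle and 118, 83 and 55 with NJT-2, and was too low to test. From the annotation in the table, 23 other genes carried a platelet-derived growth factor receptor term, of which 21 were tested. Only Adipoq (the adipokine adiponectin) was called, higher, and 5 were under an unadjusted p of 0.05, all higher. These stand beside 0.567% and 8.04% of all tested genes. DESeq2 called 3 higher and 0 lower, beside 4.40% and 3.40%. Without the 2 libraries edgeR called 3 higher and 1 lower, beside 6.88% and 6.13%. The other genes under an unadjusted p of 0.05 included Cblb, Sgpl1 (a lyase that breaks down sphingosine phosphate, 1.73) and Zfand5 (1.52).

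Around Ngfr, 10 of 42 listed neurotrophin genes were analysed and tested. EdgeR called 0, with 0 under an unadjusted p of 0.05, 0 called by DESeq2 and 0 called by edgeR without the 2 libraries that stood apart. The median log2 fold change was −0.20. They include Maged1, which binds the p75 receptor (−0.28), Rtn4, which encodes the ligand Nogo (0.29), and Arhgdia, an inhibitor of small GTPases (−0.76). Of 72 analysed genes annotated to neurotrophin or nerve growth factor, 67 were tested. EdgeR called 0, and DESeq2 called 1 higher and 3 lower, beside 4.40% and 3.40% of all tested genes. Under an unadjusted p of 0.05 were 5 higher and 5 lower, beside 8.04% and 9.72%, which is no larger a share than among all genes. EdgeR without the 2 libraries called 1 higher and 4 lower, beside 6.88% and 6.13% of all tested genes. Those higher under an unadjusted p of 0.05 included Ddit4, Gsk3b, Map3k1 and Sh2b2 (an adaptor of receptor tyrosine kinases, 2.38). Those lower under it were Bad, Bax, Hras, Mapk12 and Mapk13. Bad and Bax, which promote cell death, had −1.38 and −1.95 (adjusted p 0.254 and 0.221 by edgeR). The vehicle values were spread and highest in replicate 1. The FPKM of Bax was 244.24, 105.83 and 57.81 in vehicle and 44.69 to 48.32 with NJT-2. That of Bad was 23.37, 14.24 and 8.93 in vehicle and 7.00 to 8.21 with NJT-2. The kinase Mapk13 had −5.13 (adjusted p 0.0800 by edgeR).

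For the peptidase inhibitor term that Pi16 carries, 43 other genes were analysed and 28 tested. EdgeR called 0, with 10 lower and 1 higher under an unadjusted p of 0.05 (9.72% and 8.04% of all tested genes), and DESeq2 called 5 lower and 1 higher. Without the 2 libraries edgeR called 7 lower and 1 higher. The median log2 fold change was −0.24. The metalloproteinase inhibitor Timp2 had −1.82 (adjusted p 0.0853 by edgeR), Timp1 −2.76 (0.200) and the apoptosis inhibitor Birc5 −2.24 (0.134). Complement C3 had −1.30 and Serping1, the inhibitor of complement C1, −0.82. Of 13 other listed genes of the CAP family, to which Pi16 belongs, only Crisp2 was among the genes analysed, at 0 to 26 counts. The others have no value here, whatever their expression.

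**Figure D4:**
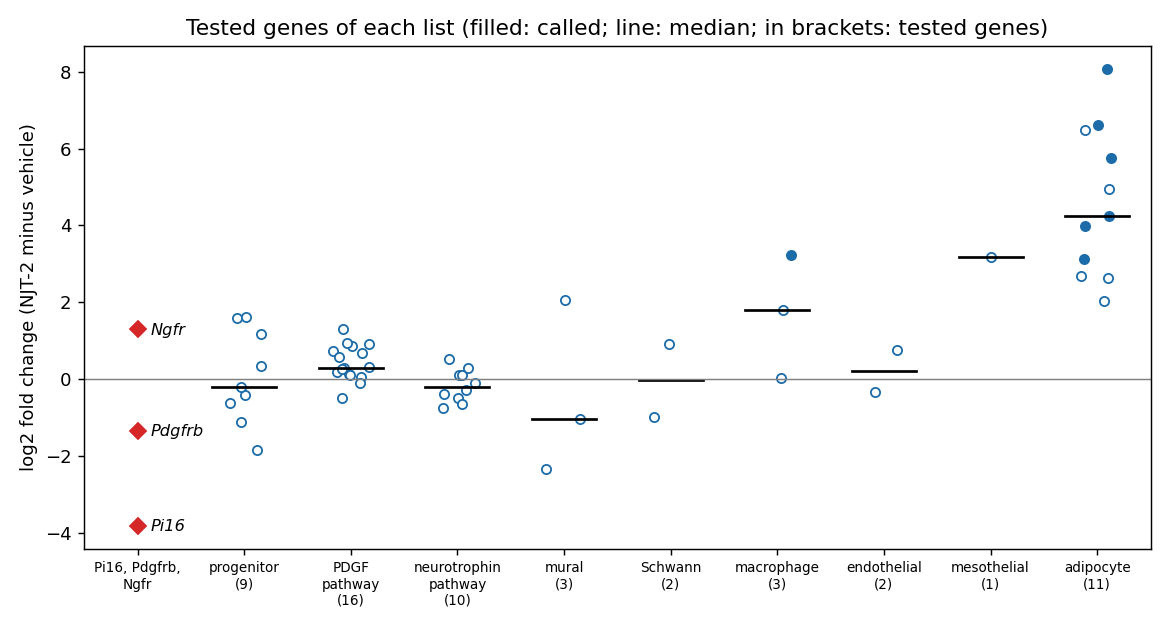
Log2 fold change (NJT-2 minus vehicle, y axis) of each tested gene in lists around Pi16, Pdgfrb and Ngfr and in marker lists, with those genes in red. The adipocyte markers all lie above 0 around a median of 4.25, and the progenitor list around −0.21.

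Some marker lists of other cells differed between the groups and others did not. Adipocyte genes were higher with NJT-2: edgeR called 6 of 11 tested and 11 of 11 were higher under an unadjusted p of 0.05, beside 0.567% and 8.04% of all tested genes, with a summed FPKM of 82.5 to 106 in vehicle and 490 to 1721 with NJT-2. The lowest of the NJT-2 sums was that of replicate 2. Lpl made up most of the adipocyte sum in vehicle, with an FPKM of 55.14 to 78.79 there, whereas Adipoq was at 0.38 to 0.50 in vehicle and 22.04 to 64.63 with NJT-2. The sum over 4 macrophage genes was 9.67 to 12.7 in vehicle and 31.2 to 56.9 with NJT-2. Of the 3 tested, edgeR called 1, Adgre1 (log2 fold change 3.23, adjusted p 0.0408), beside 0.567% of all tested genes called higher. Cd68 had 1.79 (adjusted p 0.0820 by edgeR). Csf1r had 0.03 (adjusted p 0.974 by edgeR), with overlapping groups, and Cd163, at 0 to 36 counts, was too low to test. Cells of the mural type also express Pdgfrb, and the sum over 4 mural genes was 11.8 to 14.1 in vehicle and 5.81 to 6.27 with NJT-2. Cnn1 (calponin, a smooth muscle protein) made up most of the sum in vehicle, with an FPKM of 8.88 to 11.48 there and 1.12 to 3.34 with NJT-2. Of the 3 mural genes tested, 2 (Cnn1 and Myh11) were lower and 1 was higher under an unadjusted p of 0.05, beside 9.72% and 8.04% of all tested genes. EdgeR called 0 of them, and DESeq2 called 1 lower and 1 higher, beside 3.40% and 4.40%. The higher one, Vtn (vitronectin), had a log2 fold change of 2.05 (adjusted p 0.167 by edgeR). Schwann cells can express Ngfr, and the sum over 3 Schwann genes, nearly all of it Pmp22, was 111 to 149 in vehicle and 65.9 to 84.5 with NJT-2. Of the 2 Schwann genes tested 1 was above 0 and 1 below, and edgeR and DESeq2 called 0. Pmp22 had −0.99 (unadjusted p 0.0151, adjusted p 0.200 by edgeR). It was the 1 gene lower under an unadjusted p of 0.05, beside 9.72% of all tested genes. Every NJT-2 library of Pmp22 was below every vehicle library, beside 14.0% of tested genes. Gfap had 0.92 (adjusted p 0.694 by edgeR), with overlapping groups. The sum over 4 endothelial genes was 1.15 to 2.64 in vehicle and 1.64 to 2.92 with NJT-2, so that the groups overlapped. The part of these cells in the values of Pi16, Pdgfrb and Ngfr was not tested.

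**Figure D5:**
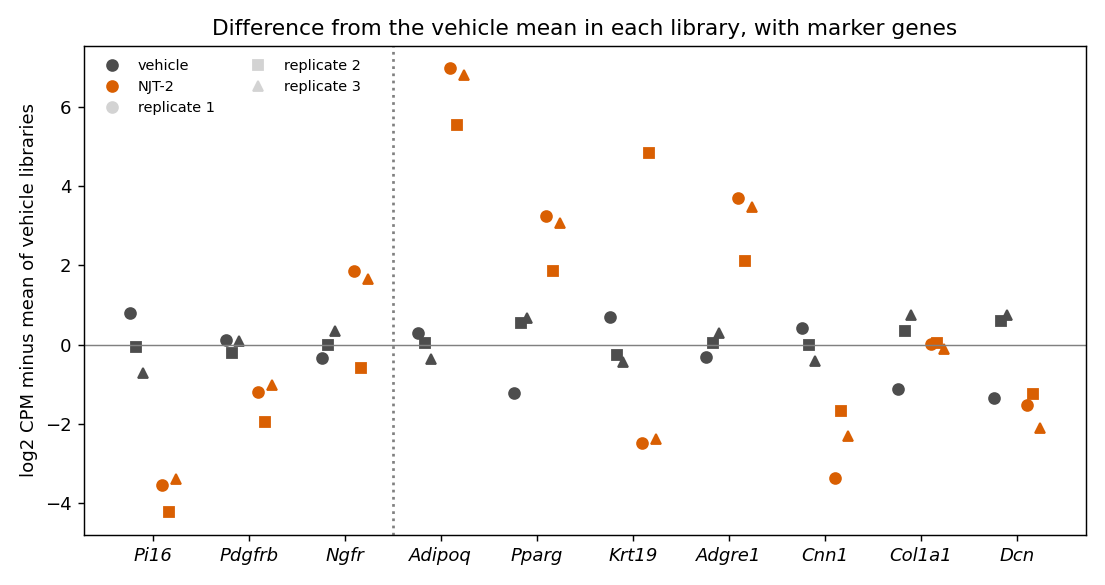
Log2 CPM of each library minus the vehicle mean for Pi16, Pdgfrb, Ngfr and marker genes. Pi16 is at −3.40 to −4.24 and Pdgfrb at −1.02 to −1.95 in the NJT-2 libraries, and Ngfr is at 1.86, −0.60 and 1.65 in NJT-2 replicates 1, 2 and 3.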

How the data were processed

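The authors deposited 1 table for the 3 vehicle and 3 NJT-2 libraries, holding raw read counts per gene and FPKM values computed and rounded by the authors. The submitters' processing notes name GRCm38, cutadapt 1.9, HISAT2 2.2.1 and StringTie 2.1.6, without their roles. The counting tool, annotation release and use of strand are not given in the sources used here. The table analysed here holds 4864 complete genes, the first by Ensembl number of 55450 in GENCODE M21, and 1 incomplete line was left out. The 3705 genes whose FPKM averaged 0.5 or more were tested in R 4.3.3 by the quasi-likelihood method of edgeR 4.0.16, after TMM scaling of the counts over the analysed genes. Log2 CPM values used a prior count of 2. A gene was called when its p, adjusted by Benjamini-Hochberg, was under 0.05 and its log2 fold change exceeded 1 in size. The procedure was tested on simulated data. Alternatives were DESeq2 1.42.0, limma 3.58.1 on log2(FPKM + 1) or log2(FPKM + 0.1), voom, other scaling and filters, a length offset, a replicate block and leaving out libraries. A single gene or ratio was tested by exact permutation, two-sided. Named were Pi16, Pdgfrb and Ngfr, from each list the genes with a role in their pathways or an unadjusted p under 0.05, and the 5 genes most like each. The genes and lists were chosen with earlier results of these data known. The values of some listed genes are not reported here. Promoter sequences are from RefSeq.

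At these depths counting error is small for Pi16 and Pdgfrb, and for all 3 genes the spread between libraries sets the precision.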

Additional observations from a re-analysis of the deposited data

How the results depend on the processing

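Directions held for Pi16, Pdgfrb and Ngfr under every alternative run, and none reversed. The number of genes called was 26 by edgeR (21 higher, 5 lower). It was 289 with DESeq2 and 727 with voom and quality weights, and 29 with upper-quartile factors (20 higher, 9 lower). It ranged from 0 to 75 when 1 library was left out. The 0 was without vehicle replicate 2, where 421 genes were under an unadjusted p of 0.05, and the 75 without NJT-2 replicate 2. Without both vehicle replicate 1 and NJT-2 replicate 2, a choice made after seeing the data, it was 482 with edgeR and 573 with DESeq2. The cause was not tested. Scaling by library totals with no factors moved the median log2 fold change of all genes from 0.02 to 0.16.

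For Pi16, leaving out 1 library gave −4.14 to −3.39, and 4 of those 6 fits lost the call. Without both libraries it was −3.12, still called. Over all 20 alternatives its adjusted p ran from 8.87e-25 to 0.243. Pdgfrb ran from −1.53 to −1.12 when 1 library was left out and was not called. It was called by DESeq2 (−1.33) and without the 2 libraries by edgeR (−1.05) and DESeq2 (−1.04), with adjusted p from 5.30e-05 to 0.442 over its alternatives. Voom gave it −0.93, short of the fold limit. Ngfr ran from 0.91 to 1.75 when 1 library was left out, again with no call. It was called by voom (1.70) and without the 2 libraries by edgeR (1.59) and DESeq2 (1.61), with adjusted p from 0.00131 to 0.629. Ngfr fell below the stricter filter (mean FPKM of 1), so that fit gave no value.

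The groups share replicate numbers, and the deviations of same-numbered libraries from their group means correlated at 0.179, 0.0325 and −0.207. Deviations from a mean of 3 libraries are tied to each other, so these values cannot decide whether the numbers pair the libraries. With the replicate block edgeR called 57 genes, and the log2 fold changes were −3.75 for Pi16 (adjusted p 0.00242), −1.39 for Pdgfrb (0.185) and 1.01 for Ngfr (0.595).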
